A study of Mus musculus with 11 samples.

Results

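Mast cell proteases and receptors are represented here by 7 genes, Mcpt4, Cma1, Cpa3, Tpsb2, Fcer1a, Ms4a2 and Kit. They were taken by name from a table of 19965 endogenous probes, in which each has 1 probe, and were followed through all 11 regions of both groups. The regions come from the mammary glands of 3 naive mice that carry a ZsGreen reporter of the periostin lineage, a label of cells that express or have expressed the matrix protein periostin. Areas were chosen by stains for smooth muscle actin (SMA), which marks ducts and blood vessels, and podoplanin (Pdpn), which marks lymphatic vessels, and transcripts were collected from the ZsGreen-positive cells in them by GeoMx digital spatial profiling. In this method barcoded probes bound to RNA in a tissue section are released by light from a chosen area and counted. Of 12 areas in the labels, 11 were analysed, 6 with the label Pdpn-adjacent (regions 2, 3, 4, 7, 8 and 11) and 5 with the label SMA-adjacent (regions 1, 5, 6, 9 and 10). All share the reporter and the naive state. Strain, age, the driver of the reporter and which region came from which mouse are not given in the sources used here.

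Mast cells are tissue-resident immune cells that store proteases, histamine and heparin in granules and release them on stimulation, classically through IgE bound to its high-affinity receptor. In mice, connective tissue mast cells carry chymases, tryptases and carboxypeptidase and lie near blood vessels and nerves, the mammary stroma included. Their survival depends on the receptor Kit and its ligand, and GATA factors drive many of their genes.

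The upstream sequences of the 3 proteases with the largest edgeR log2 fold changes between the groups are shown because GATA motifs, 6 letters long, stand in each of them. The remaining protease, Tpsb2, had no entry in the promoter table used. Sequences are from the RefSeq table (GRCm38.p6), all 3 on the minus strand, printed 5′ to 3′ up to the start of the gene, with the match in capitals. They cover chr14:56062311-56062560 for Mcpt4, chr14:55944676-55944925 for Cma1 and chr3:20242210-20242431 for Cpa3.
Mcpt4: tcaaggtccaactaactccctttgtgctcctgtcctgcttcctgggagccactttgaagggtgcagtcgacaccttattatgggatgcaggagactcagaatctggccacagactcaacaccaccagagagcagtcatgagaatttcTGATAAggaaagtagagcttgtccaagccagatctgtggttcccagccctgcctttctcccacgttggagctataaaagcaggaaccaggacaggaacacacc
Cma1: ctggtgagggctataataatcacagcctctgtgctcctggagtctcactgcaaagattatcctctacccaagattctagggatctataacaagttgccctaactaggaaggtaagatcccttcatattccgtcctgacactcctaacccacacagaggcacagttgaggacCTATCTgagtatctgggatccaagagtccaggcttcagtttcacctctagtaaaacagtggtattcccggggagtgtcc
Cpa3: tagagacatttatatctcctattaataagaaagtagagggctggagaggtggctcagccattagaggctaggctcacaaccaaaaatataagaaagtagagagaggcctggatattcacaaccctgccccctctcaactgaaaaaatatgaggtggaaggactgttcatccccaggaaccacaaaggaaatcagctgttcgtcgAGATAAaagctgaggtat
The search took GATA with A or T before it and A or G after it, on both strands, over the 250 bases before each start in the table. Counted from the transcription start in the table, the match began 103 bases before it in Mcpt4, 79 in Cma1 and 46 in Cpa3. For Cpa3 that start lies 28 bases inside the annotated gene, and those 28 bases are not printed. Fcer1a held 1 match and both starts listed for Kit held 0. Ms4a2 held 3, beginning 224, 37 and 11 bases before its start, which lies 71 bases inside the annotated gene, so that only the match at 224 is upstream of the gene. In all, 5 of the 6 genes with an entry held a match, as did 26.5% of 32851 promoters in the table. The E-box letters CACGTG, or the same with T in place of the second C, on both strands, were in 1 of the 6 (Fcer1a) and in 17.6% of all promoters. A match describes letters only and says nothing of binding.

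The probes lie inside their genes on GRCm38.p6, and the file lists 1 position for each. Those of Mcpt4 and Cma1 are on chromosome 14, at 56060695 to 56060733 and 55943767 to 55943808, and the genes are 115068 bases apart. The Cpa3 probe is on chromosome 3 at 20241942 to 20241977, and that of Tpsb2 on chromosome 17 at 25367105 to 25367139. The Fcer1a probe is on chromosome 1 at 173225522 to 173225556, the Ms4a2 probe on chromosome 19 at 11622738 to 11622773, and the Kit probe on chromosome 5 at 75607088 to 75607123. Which exon each probe meets was not analysed here. Chymases and tryptases belong to families of similar genes, and probe binding to a relative was not tested.

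Depth differed widely, from 22757 to 2271664 counts in Pdpn-adjacent and from 760761 to 3086323 in SMA-adjacent regions. Regions 2, 3 and 11, all Pdpn-adjacent, held 22757, 81760 and 30316 counts, and there most members stood at counts of 1 to 5, where 1 is the lowest value in the table. The other 8 regions each held over 100000. Acta2, the gene of smooth muscle actin, stood at 0.952 to 10.0 times background where the label was Pdpn-adjacent and at 12.9 to 87.5 where it was SMA-adjacent, while Pdpn (0.375 to 1.79 against 1.56 to 1.95) and Postn (0.889 to 4.09 against 1.84 to 5.13) did not separate the groups. Background is the geometric mean of 210 negative-control probes in the same region, and a level is the count divided by it. The floor of a region was set 2 SDs above the mean of its log2 negative probes, which came to 2.04 to 3.12 times background in the 8 deeper regions. Levels of different genes are not ranked against each other, since each rests on its own probe.

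The proteases stood above the floor in some SMA-adjacent regions, and the receptors in no region of either group. Over the 7 genes and 11 regions 10 values exceeded the floor. Of these 9 were protease values in SMA-adjacent regions 6, 9 and 10, and the other was a Cma1 count of 3 in Pdpn-adjacent region 2. The floors of regions 6, 9 and 10 were 2.23, 2.04 and 2.09 times background. Those of Pdpn-adjacent regions 4, 7 and 8 were higher, at 2.33, 3.12 and 2.88. Equal levels can therefore fall on different sides of the floor in the 2 groups. Of all probes 12.5%, 19.1% and 19.2% exceeded the floor in regions 6, 9 and 10, and 10.0% in region 2. Over the 11 regions that share ran from 2.77% (region 3) to 22.4% (region 11). Fcer1a, Ms4a2 and Kit, the members that define the surface of a mast cell, gave 0 values above the floor, so the label rests on the granule proteases here.

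Mcpt4 encodes mouse mast cell protease 4, the main chymase of connective tissue mast cells. In the SMA-adjacent regions 1, 5, 6, 9 and 10 it was counted 51, 165, 160, 336 and 217 times, which is 2.25, 1.48, 2.49, 3.89 and 5.50 times background. In the Pdpn-adjacent regions the lowest level was 0.889 (region 11, a count of 1), the median 1.04 and the highest 2.47. Regions 9 and 10 were highest, above every Pdpn-adjacent region, and 4 of 6 Pdpn-adjacent regions lay below every SMA-adjacent one. Of those 4, regions 2, 3 and 11 rested on Mcpt4 counts of 1, 3 and 1. The share of all probes split in this way was not analysed here. The highest Pdpn-adjacent value, in region 7, rested on 17 counts, whose exact 95% Poisson interval of 9.90 to 27.2 covers counting error only and spans 1.44 to 3.96 times background. Region 4, the deepest Pdpn-adjacent library, held 69 Mcpt4 counts, 0.900 times background. In library-scaled counts (CPM) the means were 43.5 ± 18.0 (SD, n = 6) and 94.8 ± 43.9 (SD, n = 5).

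**Figure D1:**
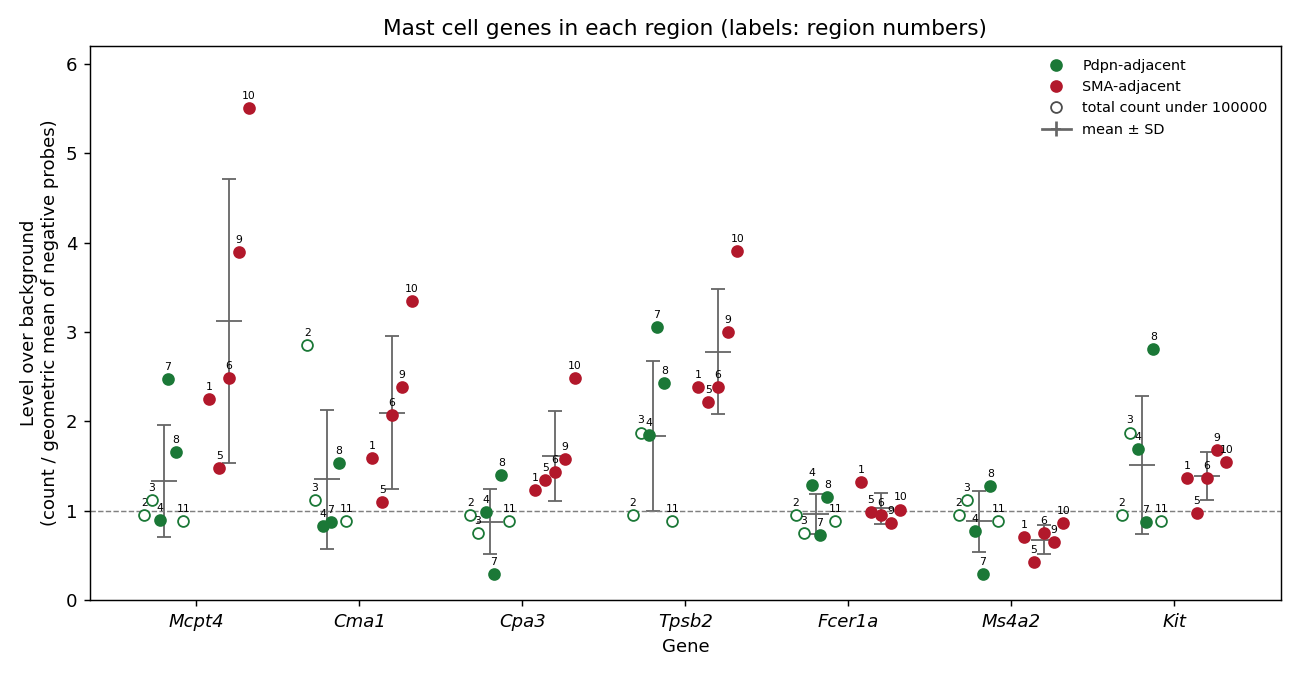
Level over background of the 7 genes in each region, with region numbers beside the points, group means ± SD as grey bars and background as the dashed line. Mcpt4 ran from 1.48 to 5.50 in SMA-adjacent and 0.889 to 2.47 in Pdpn-adjacent regions, and Fcer1a and Ms4a2 stayed near or under 1 in both.

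Between the groups Mcpt4 had a log2 fold change, Pdpn-adjacent minus SMA-adjacent, of -1.22 ± 0.32 SE, which missed the threshold over all probes (edgeR adjusted p = 0.237, from 0.0292 to 0.997 over the alternatives). An exact two-sided permutation test of its log2 level over background gave p = 0.0216, unadjusted, and 0.179 in the 8 deeper regions, 3 against 5. Leaving out SMA-adjacent region 5 gave -1.41 (edgeR adjusted p = 0.0292), and leaving out Pdpn-adjacent regions 4 and 8 gave -0.66 (edgeR adjusted p = 0.997). Such p-values can come out too small, because the labels tie no region to a mouse and more regions than mice stand in each group.

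Cma1 encodes mast cell chymase 1, also called mouse mast cell protease 5. Its counts in SMA-adjacent regions 1, 5, 6, 9 and 10 were 36, 122, 133, 206 and 132, or 1.59, 1.10, 2.07, 2.39 and 3.35 times background. In Pdpn-adjacent regions the levels ran from 0.834 in region 4 through a median of 1.01 to 2.86 in region 2. Regions 10, 9 and 6 were again the highest of their group, in the same order as for Mcpt4. The groups overlapped, and the value of region 2 rested on 3 counts, with a 95% Poisson interval of 0.589 to 8.34 times background. The log2 fold change was -1.01 ± 0.27 SE (edgeR adjusted p = 0.256, range 0.0190 to 0.996 over the alternatives), with an exact permutation p of 0.117, unadjusted. Without region 2 that permutation p was 0.0238, and in the 8 deeper regions it was 0.0893. Without region 5 the edgeR log2 fold change was -1.20 (adjusted p = 0.0190). Some regions share a mouse, so these p-values can be too small.

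Cpa3 encodes carboxypeptidase A3, a granule exopeptidase. Its counts in SMA-adjacent regions 1, 5, 6, 9 and 10 were 28, 150, 92, 136 and 98, or 1.24, 1.35, 1.43, 1.58 and 2.49 times background. The Pdpn-adjacent levels ran from 0.291 (region 7, a count of 2) through a median of 0.921 to 1.41 (region 8, a count of 11). With the exception of region 8, every Pdpn-adjacent region lay below every SMA-adjacent one, though only region 10 was above the floor. In regions 2, 3, 7 and 11 this rested on Cpa3 counts of 1, 2, 2 and 1. The share of all probes split in this way was not analysed here. The log2 fold change was -0.70 ± 0.21 SE (edgeR adjusted p = 0.450, range 0.200 to 1.00 over the alternatives that gave one), and the exact permutation p was 0.0108, unadjusted. In the 8 deeper regions the permutation p was 0.0536. Without Pdpn-adjacent regions 4 and 8 the log2 fold change was -1.52 (edgeR adjusted p = 0.675). Regions that share a mouse can make these p-values too small.

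Tpsb2 encodes tryptase beta 2, also called mouse mast cell protease 6. Its counts in SMA-adjacent regions 1, 5, 6, 9 and 10 were 54, 247, 153, 259 and 154, or 2.39, 2.22, 2.38, 3.00 and 3.91 times background, above the floor in 3 of the 5. In Pdpn-adjacent regions it ran from 0.889 in region 11 through a median of 1.86 to 3.06 in region 7, above the floor in 0 of 6. The floor of region 7 was 3.12 times background, against 2.23, 2.04 and 2.09 in SMA-adjacent regions 6, 9 and 10, so the 2 counts are not directly comparable. Among the 3 deeper Pdpn-adjacent regions the mean was 2.45 ± 0.60 (SD, n = 3), inside the range of the SMA-adjacent ones. The log2 fold change was -0.36 ± 0.21 SE (edgeR adjusted p = 0.911), the exact permutation p 0.0866, with 0.0317 without region 7 and 0.554 in the deeper regions. The p-values carry the same limit of shared mice.

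Among the proteases the log2 fold changes ran from -0.36 for Tpsb2 to -1.22 for Mcpt4. The ratio of Mcpt4 to Tpsb2 counts does not depend on scaling, but the counts include background. It was 0.944, 0.668, 1.05, 1.30 and 1.41 in SMA-adjacent regions 1, 5, 6, 9 and 10. In Pdpn-adjacent regions 4, 7 and 8 it was 0.486, 0.810 and 0.684. In regions 2, 3 and 11 it was 1.00, 0.600 and 1.00, on counts of 1 to 5. The lowest was in region 4 and the highest in region 10. The ratio of Mcpt4 to Cma1 ran from 1.20 to 1.64 over the SMA-adjacent regions and was 1.08, 2.83 and 1.08 in regions 4, 7 and 8, the value for region 7 resting on 17 and 6 counts. In regions 2, 3 and 11 that ratio was 0.333, 1.00 and 1.00, on counts of 1 to 3. Differences between members were not tested.

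Fcer1a encodes the IgE-binding alpha chain of the high-affinity IgE receptor. Its levels in SMA-adjacent regions 1, 5, 6, 9 and 10 were 1.33, 0.990, 0.949, 0.869 and 1.01, and in Pdpn-adjacent regions they ran from 0.728 through a median of 0.921 to 1.29. It was at background throughout. Ms4a2 encodes the beta chain of the same receptor, and its levels of 0.707, 0.423, 0.747, 0.649 and 0.862 in SMA-adjacent regions lay under background in each. The Pdpn-adjacent levels of Ms4a2 ran from 0.291 through a median of 0.921 to 1.28, and the values above the SMA-adjacent ones rested on counts of 1 to 10. On the log2 scale the fold change of Fcer1a came to 0.30 ± 0.16 SE (edgeR adjusted p = 0.889). That of Ms4a2 came to 0.37 ± 0.21 SE (edgeR adjusted p = 0.920). In level over background the log2 differences were -0.12 for Fcer1a, opposite in sign to its fold change, and 0.29 for Ms4a2. Exact permutation p-values of the levels were 0.496 and 0.474, with the same limit of shared mice, and that of Ms4a2 was 0.0159 without region 7. At levels this near background a difference of receptor transcript was not detectable. Of genes that mark basophils, which carry the same receptor, the protease gene Mcpt8 stood at 0.889 to 1.88 times background over the Pdpn-adjacent and 0.918 to 1.45 over the SMA-adjacent regions, and Prss34, another basophil protease gene, at 1.92 to 3.38 and 2.02 to 2.56.

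Kit encodes the receptor of stem cell factor, which mast cells share with melanocytes and some luminal cells of the mammary epithelium. Its counts in SMA-adjacent regions 1, 5, 6, 9 and 10 were 31, 108, 88, 145 and 61, or 1.37, 0.972, 1.37, 1.68 and 1.55 times background. In Pdpn-adjacent regions the levels ran from 0.873 in region 7 through a median of 1.32 to 2.81 in region 8, and region 4 had 1.69. Region 8 was the highest of all 11, on 22 counts with a 95% Poisson interval of 1.76 to 4.26 times background. The log2 fold change was 0.37 ± 0.18 SE (edgeR adjusted p = 0.819). In level over background the log2 difference was 0.0051, with an exact permutation p of 0.994, limited by shared mice as above. Without regions 4 and 8 the log2 fold change was -0.19 (edgeR adjusted p = 0.997).

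Luminal epithelial genes were higher in regions 8 and 4, where Kit was higher among the deeper Pdpn-adjacent regions, but not so over all regions. The mean level of 10 luminal genes was 3.16 times background in region 8 and 2.77 in region 4, and 1.07 to 1.77 in the other 9 regions. Kit stood at 1.69 in region 4, and at 1.88 in region 3 on 5 counts, where the luminal mean was 1.73. Among SMA-adjacent regions Kit was highest in regions 9 and 10, at 1.68 and 1.55. Their luminal means, 1.36 and 1.35, were the lowest of that group. Kit was under the floor in every region. Krt8 and Krt18, luminal keratins, reached 4.22 and 3.96 times background at most in Pdpn-adjacent regions and 1.86 and 1.86 in SMA-adjacent ones. Aldh1a3 and Elf5, genes of luminal progenitors, reached 3.19 and 2.63 against 1.37 and 1.99, the Elf5 value in region 3 and not in region 8. Between the groups all 10 luminal genes had a positive log2 fold change, 9 of them at an unadjusted edgeR p under 0.05. By that rule 2.84% of all probes were higher. After adjustment edgeR called 1 of the 10, where 2 of 19935 probes were called (0.01%). It was the casein gene Csn3, named after its values were seen and higher in Pdpn-adjacent regions (0.98 ± 0.17 SE on the log2 scale, edgeR adjusted p = 0.0413, with the same limit of shared mice). The mean over 5 melanocyte genes was 0.889 to 1.65 in Pdpn-adjacent and 1.13 to 1.20 in SMA-adjacent regions. The part of luminal or melanocyte RNA in the Kit level was not tested.

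**Figure D2:**
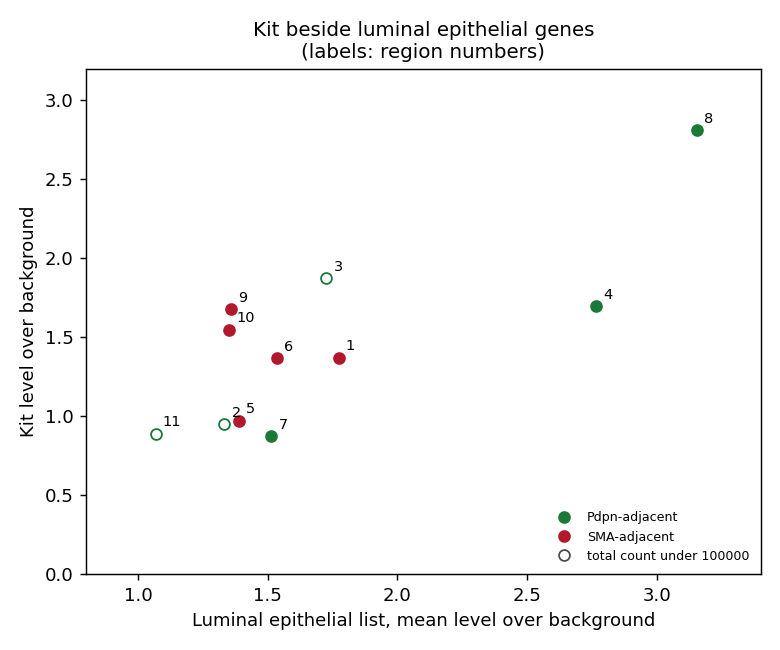
Kit level over background (y axis) against the mean level over background of 10 luminal epithelial genes (x axis), 1 point per region with its number. Regions 8 and 4 stand apart on the x axis at 3.16 and 2.77, and region 8 has the highest Kit level, 2.81. The Kit level of region 4, 1.69, lies near that of region 9, 1.68, which stands at 1.36 on the x axis.

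As a set, 0 of 7 members passed in either direction with edgeR, where 2 of 19935 probes did (0.01%). At an unadjusted p under 0.05 the edgeR count was 3 lower (Mcpt4, Cma1 and Cpa3) and 1 higher (Kit), where 3.19% of all probes were lower and 2.84% higher. Limma-voom also called 0 members. DESeq2 gave an adjusted p for Mcpt4 and Tpsb2 alone, filtering out the other 5, and called neither. The median log2 fold change of the 7 was -0.36, beside 0.01 over all probes tested. The unadjusted permutation p of the level over background was under 0.05 for 2 members, both lower, where 4.41% of all probes were lower and 1.42% higher by that rule, and in no member did all Pdpn-adjacent regions lie below all SMA-adjacent ones, as 0.446% of probes did. Transcripts were collected from the ZsGreen-positive cells of each area, and whether mast cells lay within or beside the collected parts was not tested. In such material, fewer cells of a type and less RNA per cell cannot be told apart. Leaving out region 5, which had the lowest Mcpt4, Cma1 and Tpsb2 levels of its group, gave 2 called members, Mcpt4 and Cma1, where 53 probes were called in all.

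Other measures of the same regions ran in parallel with the proteases only in part. The mean level of the 4 proteases was 3.81 and 2.71 times background in SMA-adjacent regions 10 and 9 and 1.54 to 2.09 in regions 1, 5 and 6. In Pdpn-adjacent regions 4, 7 and 8 it was 1.14, 1.67 and 1.76. The share of all probes above the floor was 19.2% in region 10, 19.1% in region 9, 12.5% in region 6, 12.2% in region 1 and 8.79% in region 5, the same order as the protease mean. In Pdpn-adjacent regions 4, 7 and 8 that share was 9.23%, 5.73% and 10.2%, which is not the order of their protease means. Region 11 had the largest share, 22.4%, and the lowest protease mean, 0.889. Region 5, with 8.79%, had Mcpt4 at 1.48 times background and region 4, with 9.23%, at 0.900. The mean of 6 smooth muscle genes was 15.8 and 31.9 times background in regions 10 and 9, 5.32 to 9.33 in the other SMA-adjacent regions, and 1.13 to 4.41 over the Pdpn-adjacent ones. Among these genes Acta2 and Myh11, the smooth muscle myosin heavy chain, were at -2.77 ± 0.70 SE and -2.51 ± 0.49 SE on the log2 scale, short of the threshold (edgeR adjusted p = 0.205 and 0.0667). Fibroblast genes, 6 in the list, had mean levels of 23.5 and 16.9 in regions 10 and 9, 7.40 to 16.6 in regions 1, 5 and 6, and 0.952 to 12.1 over the Pdpn-adjacent regions. Blood endothelial genes (5) ran from 2.12 to 5.00 against 0.952 to 3.55, and macrophage genes (7) from 2.09 to 3.31 against 0.952 to 2.99. With a covariate for the above-background share of counts, chosen after seeing the data, 0 members were called, and with a covariate for the negative-probe level Mcpt4 was (log2 fold change -1.05, edgeR adjusted p = 0.0402). The part of these other cell types in the protease levels was not tested. The p-values can be too small, as some regions share a mouse.

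**Figure D3:**
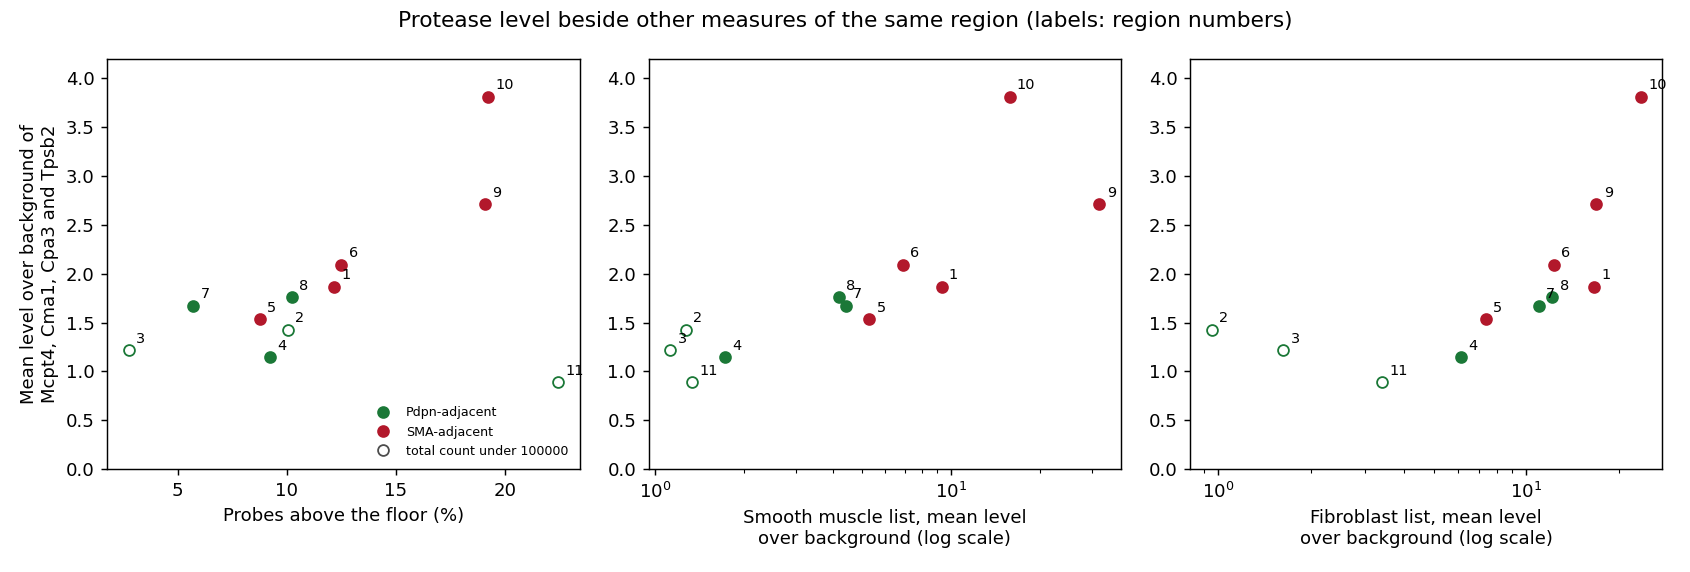
Mean level over background of Mcpt4, Cma1, Cpa3 and Tpsb2 (y axis, all panels) against the share of probes above the floor, the smooth muscle list and the fibroblast list (log axes for the lists), 1 point per region. Regions 9 and 10 lie at the upper right in each panel, with protease means of 2.71 and 3.81. Region 11, with the largest share of probes above the floor (22.4%), is a library of 30316 counts in which a count of 2 exceeds the floor.

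The genes whose pattern was most like that of the proteases were sought over the 8 deeper regions, among 3497 probes whose median over these regions was 2 or more times background. Likeness was Pearson's r of log2 CPM to the mean standardised log2 CPM of the 4 proteases. These did not all vary together over the 8 regions. Pearson's r was 0.900 for Mcpt4 and Tpsb2, 0.817 for Mcpt4 and Cma1, and 0.739 for Cma1 and Cpa3. It was 0.551 for Cma1 and Tpsb2, 0.270 for Mcpt4 and Cpa3, and 0.018 for Cpa3 and Tpsb2. By Spearman's rho the last 2 pairs had 0.667 and 0.476. The highest were Nr3c1, the glucocorticoid receptor (r = 0.951), Kank3 (r = 0.949), Inmt, a methyltransferase (r = 0.946), Psma6, a proteasome subunit (r = 0.946), and Rusc2 (r = 0.942). The 99th percentile of r was 0.863 and its median 0.22, over regions that share mice, depth and signal. Inmt ran from 1.20 times background in region 4 to 9.97 in region 10, and Nr3c1 from 2.13 to 4.90 in the same regions. Only 1 of these 5 was among the top 5 by Spearman's rho, and 0 were when all 11 regions were used, so the names depend on the measure.

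The wider set of mast cell genes held 39 with a probe, and edgeR called 0 of them (2 at an unadjusted p under 0.05, both lower). Limma-voom also called 0, and DESeq2 called 0 of the 7 to which it gave an adjusted p. Of the 39, 20 had a negative and 19 a positive log2 fold change, with a median of 0.00 beside 0.01 over all probes. Of all probes tested 48.8% had a negative one. Among 8 other granule proteases 3 were negative and 5 positive. These 8 include Mcpt8 and Prss34, given above as basophil genes, and the wider set holds other genes of the basophil list too. Gzmb, granzyme B, had -0.48 ± 0.24 SE (edgeR adjusted p = 0.831) but stayed under background in every region. Tpsab1, the other tryptase of connective tissue mast cells, stood at 0.889 to 3.75 times background in Pdpn-adjacent and 1.84 to 2.41 in SMA-adjacent regions. Tpsg1, a further tryptase, was above the floor in 4 Pdpn-adjacent and 4 SMA-adjacent regions, at 1.66 to 4.88 and 2.12 to 2.85 times background (0.03 ± 0.22 SE on the log2 scale, edgeR adjusted p = 1.00). Ctsg, cathepsin G, and Mcpt1 and Mcpt2, proteases of mucosal mast cells, stayed under the floor in every region. Tpsab1, Tpsg1 and Mcpt2 were chosen after their values were seen. The p-values in this set carry the limit of shared mice.

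Among 6 genes of granule contents and release, 4 were negative, where 48.8% of all probes were. Srgn, serglycin, the proteoglycan that packs granule proteases and that other immune cells also make, was above the floor in 5 of 5 SMA-adjacent regions and 1 of 6 Pdpn-adjacent ones. Its level was 2.50 to 4.60 times background against 0.889 to 3.32 (log2 fold change -0.50 ± 0.21 SE, edgeR adjusted p = 0.761). Hdc, which makes histamine and was named after its values were seen, was at 0.146 to 1.13 and 0.666 to 0.778 times background. Of 5 lipid mediator genes 2 were negative, and Ptgs1, cyclooxygenase 1, had levels of 0.889 to 2.30 against 1.84 to 3.67 (log2 fold change -0.54 ± 0.20 SE, edgeR adjusted p = 0.694). The p-values can be too small here too, since some regions share a mouse.

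Genes of IgE receptor signalling and other mast cell receptors numbered 12, of which 7 were negative and 5 positive, beside 48.8% negative over all probes. Fcer1g, the signalling gamma chain of the IgE receptor, which macrophages also express, stood at 0.375 to 1.53 times background beside Pdpn-marked areas and at 0.887 to 1.55 beside SMA-marked ones (-0.37 ± 0.18 SE on the log2 scale, edgeR adjusted p = 0.837). Btk, a kinase of the same pathway, had 0.26 ± 0.18 SE (edgeR adjusted p = 0.946). Growth and transcription factors, 8 in all, were split evenly in sign at 4 and 4. Kitl, the ligand of Kit, had levels of 0.375 to 3.32 in Pdpn-adjacent and 1.48 to 3.68 in SMA-adjacent regions (-0.38 ± 0.25 SE, edgeR adjusted p = 0.928), and Gata2, a factor mast cells require, 0.750 to 2.17 and 1.23 to 2.18 (-0.26 ± 0.19 SE, edgeR adjusted p = 0.952). Shared mice limit these p-values as well.

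**Figure D4:**
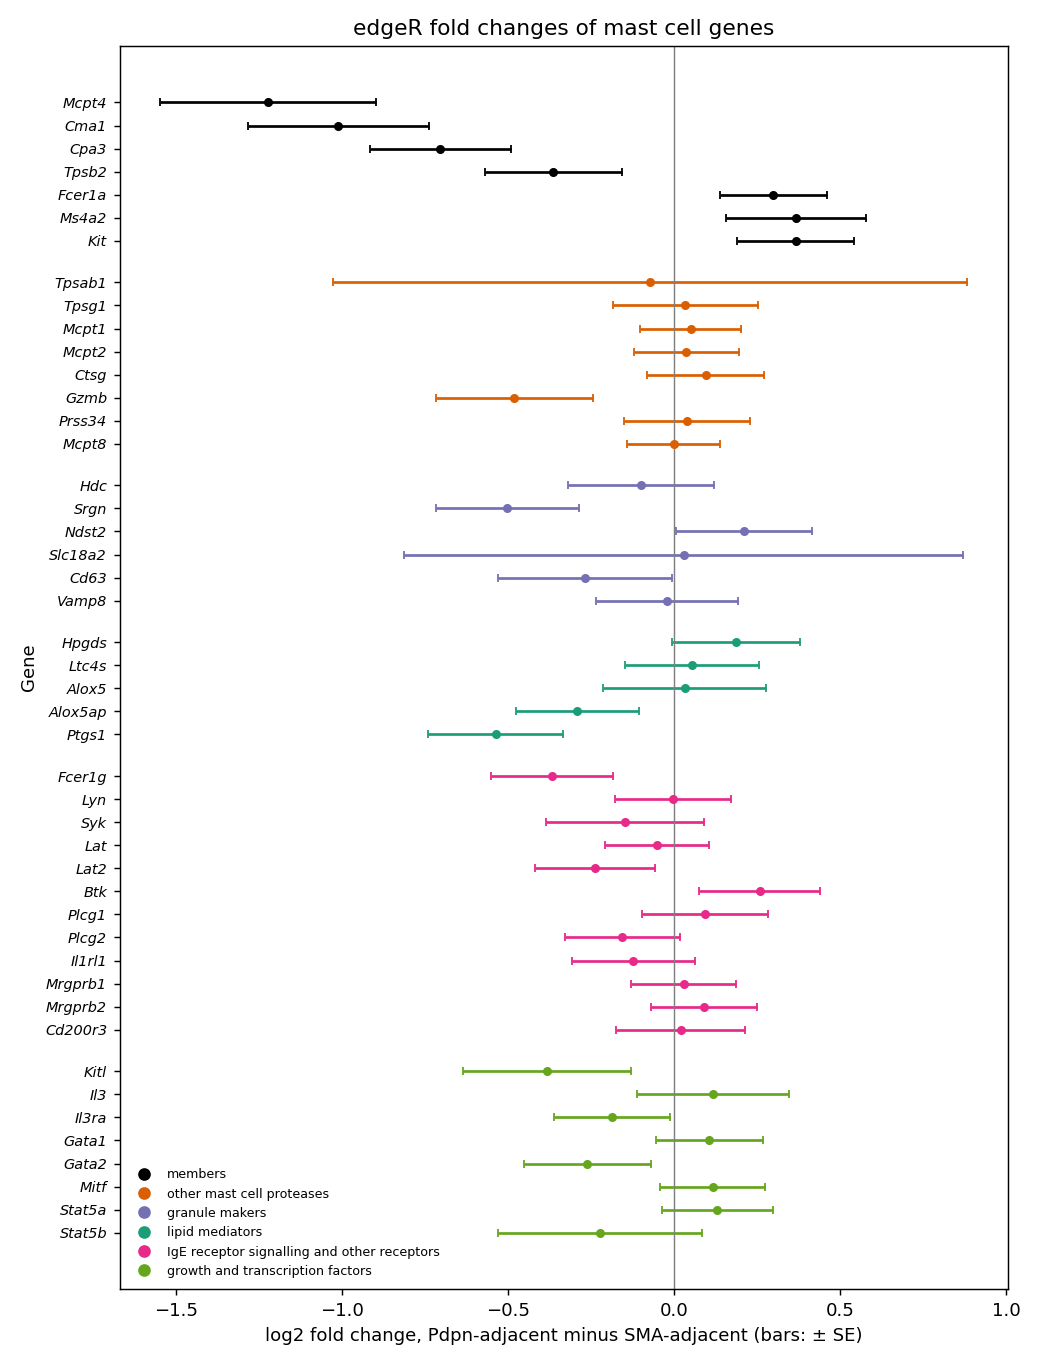
edgeR log2 fold changes, Pdpn-adjacent minus SMA-adjacent, of the 7 members and 39 other mast cell genes grouped by role, with bars of ± 1 SE. Mcpt4 at -1.22 and Cma1 at -1.01 lie farthest from 0, and 0 of the genes passed the threshold.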

How the data were processed

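GeoMx Whole Transcriptome Atlas libraries of 11 regions were analysed. The authors deposited raw counts per probe, judged from whole numbers with differing totals (22757 to 3086323 per region). The steps from reads to counts are not given in the sources used here, and the probe build is GRCm38.p6 per the file headers. Low totals limit precision, and Poisson intervals cover counting error only.

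From these counts, 19935 of 19965 endogenous probes passed filterByExpr and were tested between groups with edgeR 4.0.16 in R 4.3.3 (TMM factors, quasi-likelihood test, Benjamini-Hochberg over all probes, threshold 0.05), with no covariate. SEs were derived from the log2 fold change and the p of the test. CPM are counts relative to the TMM-adjusted library size. Negative probes (210) gave background and floor only. Single genes were also compared by exact permutation over 462 splits (smallest p 0.00216), unadjusted over the 7 members. Alternatives left out regions, changed filter, scaling or tool (DESeq2 1.42.0, limma 3.58.1) or took in a covariate. The edgeR, DESeq2 and limma-voom fits with the main settings were first tested on simulated counts, and the permutation test on fixed values of known p. Fits with a covariate or changed scaling were not tested in this way.

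Members and gene lists were chosen with earlier results of these data known. All 7 members are described, with up to 3 genes of smallest p in each further mast cell list, the 5 probes most like the proteases, Postn, Pdpn and Acta2 as label checks, Krt8, Krt18, Elf5 and Aldh1a3 beside Kit, Mcpt8 and Prss34 beside the IgE receptor, and Myh11 beside the proteases. Other names are given as chosen after their values were seen. Mcpt9 was listed but not analysed here.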

Additional observations from a re-analysis of the deposited data

Results flagged for a closer look

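Of 14 sets of values (7 genes in each group), 2 held a region far from the others in level over background, and chance alone marks about 1 set in 20. Cma1 in Pdpn-adjacent region 2 stood at 2.86 times background, with the next region at 1.53, on a count of 3 in the library of 22757 counts. Cpa3 in SMA-adjacent region 10 stood at 2.49 times background, with the next region at 1.58, on a count of 98. Region 10 also had the highest levels of Mcpt4, Cma1 and Tpsb2.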

How the results depend on the processing

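The count of members called was 0 under 20 of 22 alternatives, 1 with a covariate for the negative-probe level and 0 to 2 when each region was left out, the 2 without region 5. The count of the wider set stayed at 0 under all 22. DESeq2 gave an adjusted p for 2 members and 7 of the wider set only. Over all probes 2 were called, against 0 to 53 when other settings were used. These were 1 with negative-probe scaling, 17 with DESeq2, 0 with limma-voom, 1 with sample quality weights, 44 with the negative-probe covariate, 1 without regions 2, 3 and 11, 13 without regions 4 and 8, 37 with a covariate for the above-background share of counts (chosen after seeing the data), and 1 to 53 when each region was left out. Values above the floor numbered 10, 24 at 1 SD and 6 at 3 SD. Of the 5 genes most like the proteases, 1 was shared with Spearman's rho and 0 with all 11 regions. Mcpt4, Cma1, Cpa3 and Tpsb2 kept a negative sign in every fit run. Fcer1a ran from -0.16 to 0.37 when each region was left out, turning to -0.16 without region 4 and -0.27 without regions 4 and 8, and Kit to -0.19 without regions 4 and 8. For the log2 difference in level over background, Kit moved from 0.0051 to -0.032 with the arithmetic mean of negative probes and lay between -0.20 and 0.14 when each region was left out, being -0.09, -0.06, -0.12 and -0.20 without regions 3, 4, 5 and 8. Without regions 2, 3 and 11 Fcer1a moved from -0.12 to 0.010 and Ms4a2 from 0.29 to -0.0017. The causes were not tested. Depth limits regions 2, 3 and 11, where most members rest on 5 counts or fewer. No paired analysis was possible because the labels tie no region to a mouse and the region numbers are serial.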

Other observations

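Lymphatic endothelial genes (4) had a mean level of 0.657 to 1.79 times background in Pdpn-adjacent and 1.37 to 1.65 in SMA-adjacent regions, and basophil genes (5) had 1.33 to 1.88 and 1.36 to 1.49. In region 7, Mcpt4 and Tpsb2 stood at 2.47 and 3.06 times background while Cpa3 stood at 0.291 and Cma1 at 0.873, on 17, 21, 2 and 6 counts.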
